A study of Mus musculus with 2 samples.

Results

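The transcripts described here were those annotated as small nuclear RNA (snRNA), small nucleolar RNA (snoRNA), small Cajal body RNA (scaRNA) or microRNA (miRNA). They were chosen by the biotype given for each transcript in the deposited table, with no use of counts. The rule took 5111 of 109463 transcripts, made up of 1382 snRNAs, 1493 snoRNAs, 43 scaRNAs and 2193 miRNA precursors. Of these, 3590 (70.2%) carried only a provisional Gm gene name. The libraries came from control mouse brain at postnatal day 5, and both libraries were from Smn+/-; SMN2tg/0 animals on the FVB background, which carry 1 disrupted Smn allele and a human SMN2 transgene. Polysomes were taken from a sucrose gradient of cytoplasmic lysate and digested with RNase I, and fragments of 25 to 35 nucleotides were sequenced. The study held 1 group of 2 biological replicates and no contrast, so each comparison below is between the replicates or between kinds of transcript. Whole brain was used, so fewer cells of a type and less RNA per cell cannot be told apart.

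snRNAs are the RNA cores of the spliceosome: U1 and U2 recognise the 5′ splice site and the branch point, U4, U5 and U6 join them, and U11 and U12 serve the minor class of introns. Box C/D snoRNAs guide 2′-O-methylation and box H/ACA snoRNAs guide pseudouridylation of ribosomal RNA in the nucleolus, while scaRNAs do the same for snRNAs in Cajal bodies. miRNAs are cut from hairpins and carried by Argonaute proteins to messenger RNAs, where they lower translation and stability. These RNAs are in general not regarded as templates for ribosomes, and a footprint library holds any RNA of the selected length that outlasts the nuclease in the fractions taken, so a fragment counted here is not by itself a sign of translation.

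The miRNA sequences below belong to seeds and precursors described further on, printed 5′ to 3′ from RefSeq (GRCm38.p6). The precursors of the mature miRNAs shown held few footprints, and none of them was tested between the libraries. In the first 4, which are mature miRNAs, capitals mark the seed, bases 2 to 8, which pairs with target messenger RNAs. let-7b-5p and let-7c-5p share the seed GAGGUAG, the miRNA seed with the most footprints among those shared by several precursors. miR-541-5p is shown because its mature form is 25 nucleotides long, at the lower end of the selected fragment range.
let-7b-5p: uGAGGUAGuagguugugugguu
let-7c-5p: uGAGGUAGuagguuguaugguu
miR-181a-5p: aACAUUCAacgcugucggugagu
miR-541-5p: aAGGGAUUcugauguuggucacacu
On the plus strand, let-7b-5p lies at chr15:85707325-85707346, the let-7c-5p copy of Mirlet7c-2 at chr15:85706616-85706637, the miR-181a-5p copy of Mir181a-2 at chr2:38852741-38852763 and miR-541-5p at chr12:109742422-109742446. Mirlet7b and Mirlet7c-2 lie within the non-coding gene Lncppara, Mir541 within the non-coding gene Mirg, and Mir181a-2 within Nr6a1 and Nr6a1os. Whether a precursor is exonic or intronic in these genes was not determined.

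The counted unit was the whole precursor and not the mature arm, so the hairpins of 3 miRNAs are shown as well, with the mature arms in capitals where the RefSeq table places them.
Mirlet7b: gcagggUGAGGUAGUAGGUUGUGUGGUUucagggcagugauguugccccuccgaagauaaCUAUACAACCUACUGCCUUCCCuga
Mir541: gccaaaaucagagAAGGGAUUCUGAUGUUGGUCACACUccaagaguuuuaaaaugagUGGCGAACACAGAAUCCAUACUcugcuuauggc
Mir5099: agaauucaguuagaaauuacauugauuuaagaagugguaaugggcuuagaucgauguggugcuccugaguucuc
They lie on the plus strand at chr15:85707319-85707403, chr12:109742409-109742498 and chr12:36816205-36816278, and Mir5099 has no enclosing gene. The Mir5099 hairpin is shown because it had the highest mean level of any miRNA with a Mir name.

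Depth differed between the libraries. Replicate 1 held 1866831 footprints and replicate 2 held 5261878, a ratio of 2.82, so a transcript with 0 counts could have held up to 1.61 CPM (counts scaled to a library total of 1e+06) in replicate 1 and 0.570 CPM in replicate 2 (3 counts of the total). Intervals given below are exact Clopper-Pearson 95% intervals and, like these limits, cover counting error only, because copies of a molecule made by PCR are not independent. Summed levels of the neuronal markers were 5314 CPM and 4290 CPM, those of the red cell markers 1498 CPM and 1055 CPM, and those of the liver markers 583 CPM and 278 CPM. Of the liver list, Alb was at 0 in both libraries and nearly all of the sum was Ttr, which choroid plexus also makes (582 and 277 CPM, log2 ratio -1.20, called lower). Their part in the results below was not tested.

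Most of the small RNA transcripts had no footprint. In all, 1448 of 5111 (28.3%) had at least 1 in either library, against 71.9% of all transcripts in the table, and 949 had 1 or more in both. Median length was 106 nucleotides for the small RNAs and 950 for all transcripts. At equal density a short transcript is less likely to hold a footprint, so these percentages are not matched for length. The share with a footprint was highest for scaRNAs, with 21 of 43 (48.8%), followed by snoRNAs with 544 of 1493 (36.4%), snRNAs with 460 of 1382 (33.3%) and miRNAs with 423 of 2193 (19.3%). The other 3663 transcripts were at 0 in both libraries, Rnu7, the snRNA of histone messenger RNA 3′ end processing, among them.

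The 4 classes together took 0.376% of footprints in replicate 1 and 0.298% in replicate 2, or 0.337% ± 0.0552 over both (SD, n = 2). snRNAs held the largest part, 0.210% (interval 0.204 to 0.217) in replicate 1 and 0.170% (0.166 to 0.173) in replicate 2. snoRNAs held 0.115% (0.110 to 0.120) and 0.0903% (0.0877 to 0.0929). miRNA precursors held 0.0428% (0.0399 to 0.0459) and 0.0326% (0.0311 to 0.0342), and scaRNAs 0.00878% (0.00749 to 0.0102) and 0.00582% (0.00518 to 0.00650). Each class was lower in replicate 2, and in none of the 4 did the intervals of the libraries overlap. The order of the classes was the same in both libraries.

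**Figure D1:**
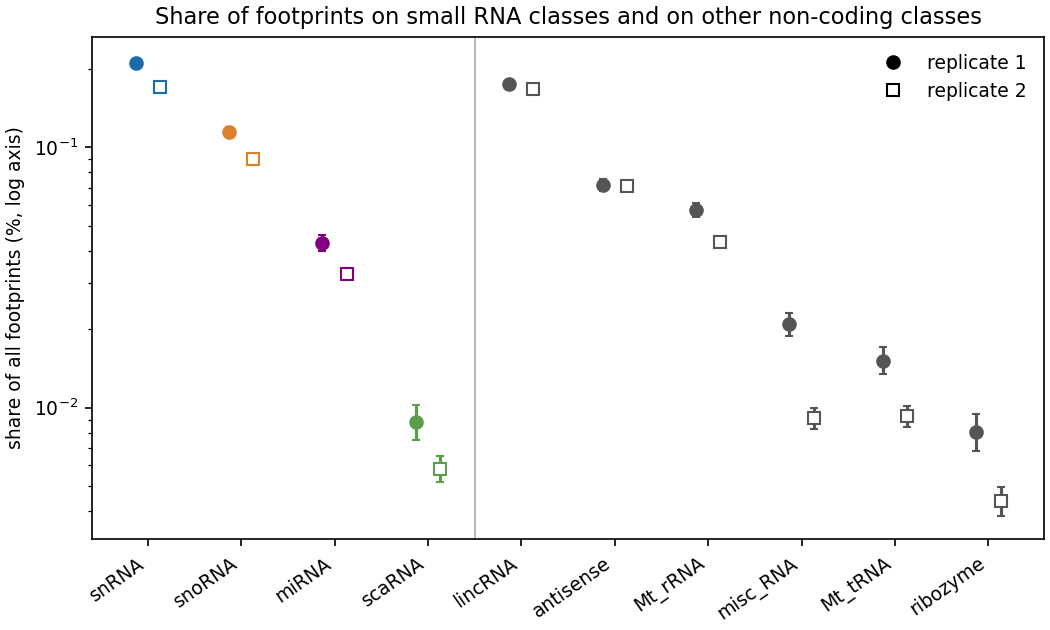
Share of all footprints (percent, log axis) on each small RNA class, left of the grey line, and on other non-coding classes, right of it, with filled circles for replicate 1, open squares for replicate 2 and exact 95% intervals as bars. The 4 small RNA classes were lower in replicate 2, while lincRNA and antisense transcripts lay close to equal.

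The ratio of the share in replicate 2 to that in replicate 1 was 0.807 for snRNAs (0.777 to 0.838), 0.787 for snoRNAs (0.748 to 0.829), 0.763 for miRNAs (0.701 to 0.831) and 0.662 for scaRNAs (0.546 to 0.805). As pooled shares, long non-coding classes moved less, with 0.958 for lincRNA (0.920 to 0.998) and 0.992 for antisense transcripts (0.931 to 1.06). Medians over single transcripts, given below, set lincRNA closer to the small RNAs. Other structured RNAs were also lower in replicate 2. The ratio was 0.436 for the misc_RNA class (0.380 to 0.499), 0.544 for ribozymes (0.441 to 0.673), 0.611 for mitochondrial transfer RNAs (0.526 to 0.709) and 0.753 for mitochondrial ribosomal RNAs (0.700 to 0.811). Nuclear-encoded rRNA transcripts, 354 in the table, held 0 footprints in replicate 1 and 3 in replicate 2, so the small RNAs could not be set against them.

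Per kilobase of annotated transcript, the classes stood in another order. Footprint density, the CPM of a class over its summed length, was 12.1 ± 1.82 CPM per kilobase for snRNAs, 10.3 ± 2.95 for scaRNAs, 5.90 ± 0.994 for snoRNAs and 1.87 ± 0.355 for miRNA precursors (SD, n = 2). The same quantity was 6.28 ± 0.0907 for protein-coding transcripts and 0.282 ± 0.00849 for lincRNAs. The snRNA density was thus above that of coding transcripts in both libraries (13.4 and 10.8 against 6.35 and 6.22), the snoRNA densities of 6.60 and 5.19 lay on either side of it, and the miRNA densities of 2.12 and 1.62 were below it. The order depended on the measure: as medians over transcripts with a footprint, density was 23.4 for snRNAs, 11.7 for snoRNAs, 6.03 for scaRNAs and 3.15 for miRNAs, against 3.10 for protein-coding transcripts. Median length was 90 nucleotides for miRNA precursors and 1845 for protein-coding transcripts. A single footprint gives a higher density on a shorter transcript, so these medians have a higher floor for small RNAs and cannot be compared directly with the coding value. The scaRNA value rested on few transcripts, since Scarna2 alone held 43.0% of the class level.

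Transcript by transcript, 392 of the small RNAs reached a mean count of 10 and were tested. An exact two-sided binomial test was run against the ratio of library sizes after TMM scaling, with Benjamini-Hochberg adjustment over all 43655 transcripts of that level, and it called 40 of the 392 different between the replicates, all of them lower in replicate 2 and 0 higher. Over all transcripts tested, 6.15% were called, 5.48% lower and 0.662% higher in replicate 2. The called small RNAs were 31 of 226 snRNAs, 5 of 125 snoRNAs, 1 of 7 scaRNAs and 3 of 34 miRNAs. The median log2 ratio of replicate 2 over replicate 1 was -0.32 for the tested small RNAs and 0.01 for all transcripts tested (-0.15 and 0.19 with library totals in place of TMM). With TMM it was -0.30 over 128 tested lincRNAs, of which 5 were called lower and 0 higher. Over 54 tested antisense transcripts it was -0.16, with 2 called lower and 0 higher. Among 4045 other transcripts of like density, between 30.6 and 102 CPM per kilobase, the median was -0.23, and 77.5% lay below 0 against 65.6% of the small RNAs. The test covers counting noise alone: with the common dispersion of both libraries, edgeR's exact test called 0 small RNAs and 8 transcripts in all, with 27 snRNAs, 10 snoRNAs, 1 scaRNA and 4 miRNAs at an unadjusted p under 0.05. With library totals the binomial test called 19 of the 392 small RNAs. Over all 43655 transcripts it then called 1901 (4.35%), so the small RNAs lay near the share of all transcripts.

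**Figure D2:**
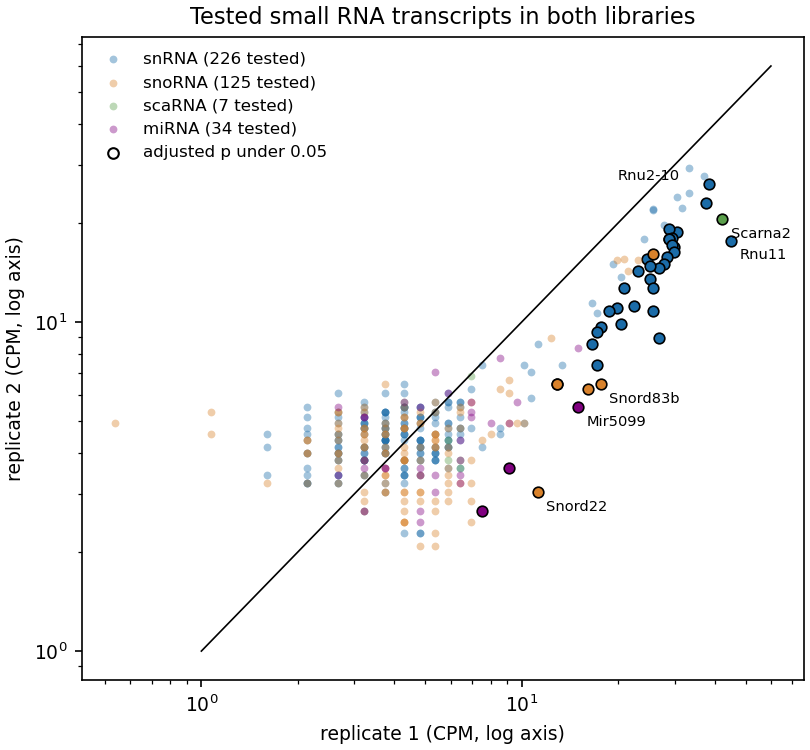
Level of each tested small RNA transcript in replicate 1 and replicate 2 (CPM, log axes), coloured by class, with a black outline where the exact binomial test gave an adjusted p under 0.05 and a line where the levels are equal. All 40 outlined points lie below the line.

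The spliceosomal snRNAs were described by transcript length, since few carry a U name. Transcripts of the length of a named snRNA were grouped with it, which gives the length of U1 (164 to 166 nucleotides, 58 transcripts), U2 (191, 14), U5 (116, 13), U6 (107, 408), U11 (134, 5) and U12 (151, 7). A transcript of such a length need not be a copy of that snRNA, because the sequences were not compared. snRNAs of all other lengths held 10.8% of snRNA footprints in replicate 1 and 11.7% in replicate 2.

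U1-length transcripts held 1153 footprints in replicate 1 and 1972 in replicate 2, a share ratio of 0.607 (0.564 to 0.653). U2-length transcripts held 692 and 1428, a ratio of 0.732 (0.668 to 0.803). U5-length transcripts held 242 and 382, a ratio of 0.560 (0.475 to 0.661). All 3 were therefore lower in replicate 2 beyond counting error. Of the minor spliceosome, U11-length transcripts held 92 and 111 footprints, a ratio of 0.428 (0.322 to 0.571), and U12-length transcripts 102 and 113, a ratio of 0.393 (0.298 to 0.519). The U11 value rested on Rnu11, which held 89.1% of the level of its length, and without it the ratio was 0.798. The intervals of U11 and of U12 overlapped that of U5.

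U6-length transcripts went the other way on this scale. They held 1219 and 3873 footprints, a ratio of 1.13 (1.06 to 1.20), and their part of all snRNA footprints was 31.1% in replicate 1 and 43.4% in replicate 2. With TMM library sizes the log2 ratio changed from 0.17 to -0.012, so its direction depends on the scaling, while the ratios of the other 5 lengths were below 1 under both. The test called 18 of 30 U1-length, 3 of 13 U2-length, 5 of 7 U5-length, 1 of 2 U11-length and 2 of 2 U12-length transcripts lower in replicate 2, and 0 of 143 U6-length transcripts. Counts per transcript differed, with medians of 42 and 71 over the U1-length copies examined below and 7 and 24 over the U6-length ones. At low counts only a large ratio can be called, so these numbers of calls cannot be compared directly.

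**Figure D3:**
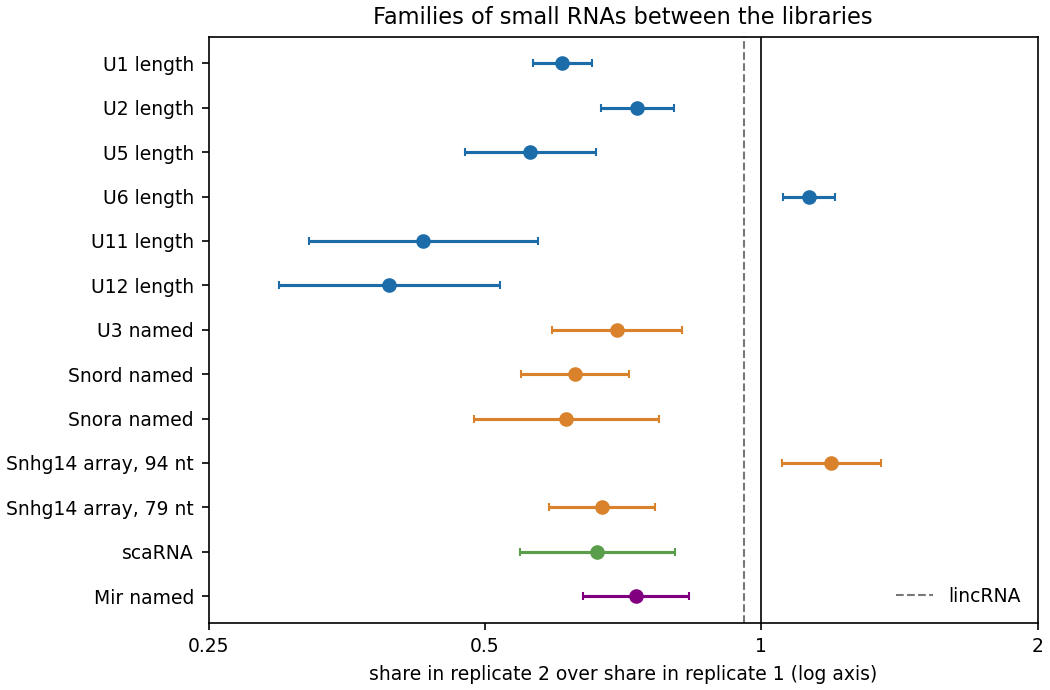
Share of footprints in replicate 2 over that in replicate 1 (log axis) for families of small RNAs, with exact 95% intervals for counting error as bars, a solid line at 1 and a dashed line at the lincRNA ratio of 0.958. With library totals, the scale used here, the U6-length snRNAs and the 94-nucleotide snoRNAs of Snhg14 lie above 1 and the other families below it.

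Among named snRNAs, Rnu11, the U11 RNA that recognises the 5′ splice site of minor introns, had the lowest adjusted p. It held 84 footprints (45.0 CPM) in replicate 1 and 93 (17.7 CPM) in replicate 2, with a log2 ratio of -1.51 and an adjusted p of 1.02e-09 by the exact binomial test. Its density of 234 CPM per kilobase was far above the 12.1 of its class. Rnu12, the U12 RNA that pairs with the minor branch point, held 48 and 57 footprints (25.7 and 10.8 CPM), a log2 ratio of -1.39 with an adjusted p of 4.27e-05 by the same exact test. Gm24525, which has the length of U12 and lies within Zfp804b, held 50 and 47 footprints (26.8 and 8.93 CPM), a log2 ratio of -1.71 with an exact adjusted p of 3.8e-07. All 3 were lower in replicate 2.

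Named snRNAs of the major spliceosome had footprints in both libraries. Rnu1a1, a U1 RNA, held 53 and 83 footprints (28.4 and 15.8 CPM), a log2 ratio of -1.01 with an exact adjusted p of 0.00237. Rnu1b1, Rnu1b2 and Rnu1b6, other U1 RNAs, had log2 ratios of -1.10, -1.33 and -1.06 and were called as well. Rnu5g, a U5 RNA, held 37 and 58 footprints, a log2 ratio of -0.997 with an exact adjusted p of 0.0213, and this call was lost with library totals, as was that of Rnu1b1. Rnu2-10, a U2 RNA, held 62 and 130 footprints (33.2 and 24.7 CPM) and was not called (log2 ratio -0.60, exact adjusted p 0.105), and Rnu6, with 12 and 29 footprints, was not called either (-0.38, exact adjusted p 0.852). The highest mean level of all was that of Gm25813, of U2 length, with 72 and 138 footprints (38.6 and 26.2 CPM), and Gm24950, also of U2 length, stood beside it with 69 and 146. Of the pair, Gm25813 alone was called, and it lost the call with library totals.

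Near-identical copies could share fragments, so the spread of counts over transcripts of 1 length was examined. If each fragment were placed at random on 1 of several equal copies, the variance of counts over copies would be close to their mean, and if each were counted on every copy the variance would be near 0. Transcripts were chosen by their count in the other library, at least 15 in replicate 2 or at least 5 in replicate 1. Over U6-length transcripts, the ratio of variance to mean was 0.691 in replicate 1 (142 transcripts, median count 7) and 0.787 in replicate 2 (136 transcripts, median count 24). The U6-length transcripts below these cutoffs were thus left out. U1-length transcripts (29 and 31 kept) were uneven, with ratios of 5.81 and 12.4, and so were U2-length ones (13 kept in each), with 5.30 and 12.2. The contrast between U6 and U1 lengths may depend in part on the cutoffs. The 262 U6-length transcripts with a footprint fell into a low and a high group in both libraries, and Spearman's rho between the libraries over them was 0.824, as a description. It was 0.954 over 36 U1-length and 0.879 over 14 U2-length transcripts, so transcripts of these lengths differed in level in the same order in both libraries. How fragments that match several copies were placed is not known, so levels of single copies remain uncertain and calls on copies of a family may not be independent. Summing the copies of each family before the test gave 7 called of 35 snRNA features, all lower in replicate 2. The share called over all features was not kept for this setting. Summed families also hold larger counts, at which a smaller ratio can be called, so this number cannot be compared with the shares above.

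**Figure D4:**
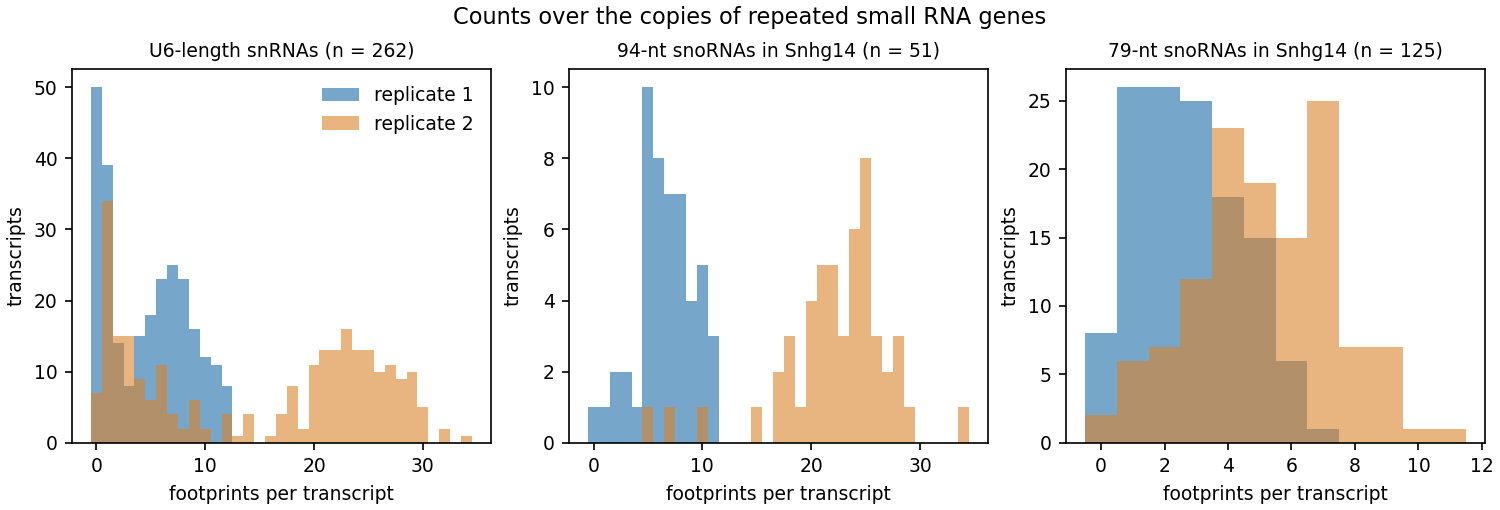
Number of transcripts by footprint count, for snRNAs of 107 nucleotides (the U6 length) and for snoRNAs of 94 and of 79 nucleotides within Snhg14, with transcripts that had a footprint in either library shown and replicate 1 in blue and replicate 2 in orange. The 94-nucleotide copies form 1 mound per library, with medians of 7 and 23, while the 107-nucleotide snRNAs form a low and a high group.

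Among snoRNAs, the arrays within Snhg14 held the largest part. Snhg14 is the long non-coding host of the brain-expressed box C/D snoRNAs of the imprinted Prader-Willi region. The table placed 190 snoRNAs in it, and 182 (95.8%) had a footprint, against 33 of 96 (34.4%) in other non-coding genes, 165 of 414 (39.9%) in protein-coding genes and 54 of 563 (9.59%) with no enclosing gene. They held 33.0% of snoRNA footprints in replicate 1 and 38.7% in replicate 2.

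The 2 main lengths in Snhg14 moved apart. The 51 transcripts of 94 nucleotides, the length of the named Snord116l1 and Snord116l2, held 337 and 1131 footprints, a share ratio of 1.19 (1.05 to 1.35). With TMM library sizes the log2 ratio changed from 0.25 to 0.067, so the size of this rise depends on the scaling. No interval was computed with TMM sizes. The level per transcript of this length ran from 0 to 11 footprints in replicate 1 and up to 34 in replicate 2. The 129 transcripts of 79 nucleotides held 343 and 648, a ratio of 0.670 (0.587 to 0.766). The intervals of the pair did not overlap, and the part of snoRNA footprints on the 94-nucleotide array was 15.7% and 23.8%, against 16.0% and 13.6% on the 79-nucleotide array. None of the 47 tested 94-nucleotide transcripts was called, though at median counts over the copies of 7 and 23 only a large ratio can be called. Over copies with at least 1 footprint in the other library, the variance-to-mean ratio of counts was 1.01 and 0.934 in the 94-nucleotide array. It was 0.992 and 0.857 in the 79-nucleotide array. Spearman's rho between the libraries was 0.141 over the 51 transcripts of the first and 0.483 over the 125 of the second with a footprint, so the order of the copies recurred more in the 79-nucleotide array. The copies share both libraries and the same unknown placing of fragments.

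U3, the box C/D snoRNA that takes part in cutting the ribosomal RNA precursor, gave the most abundant single snoRNAs. The 6 transcripts with a U3 or Rnu3 name held 230 and 451 footprints, a share ratio of 0.696 (0.592 to 0.819), at a density of 80.9 ± 20.5 CPM per kilobase (SD, n = 2). U3.2 held 48 and 85 (25.7 and 16.2 CPM), with a log2 ratio of -0.84 and an exact adjusted p of 0.0287 that did not hold with library totals, and Rnu3b1, Rnu3b2, Rnu3b3 and Rnu3b4 were not called, with log2 ratios from -0.75 to -0.53.

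The 79 other named box C/D (Snord) transcripts held 341 and 602 footprints, a ratio of 0.626 (0.548 to 0.717). The 42 named box H/ACA (Snora) transcripts held 120 and 207, a ratio of 0.612 (0.486 to 0.773). Both were lower in replicate 2, and their intervals overlapped. Density was 22.0 ± 7.15 CPM per kilobase for Snord and 8.80 ± 2.99 for Snora transcripts, and Snord was the denser in each library (27.1 against 10.9, and 17.0 against 6.68). Footprints were found on 66 of 79 Snord and 39 of 42 Snora transcripts.

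Snord83b, a box C/D snoRNA within the ribosomal protein gene Rpl3, held 33 and 34 footprints (17.7 and 6.46 CPM), a log2 ratio of -1.56 with an exact adjusted p of 0.000328. Snord22, within the host RNA Snhg1, held 21 and 16 (11.2 and 3.04 CPM), a log2 ratio of -1.90 with an exact adjusted p of 0.00064. Gm22680, a snoRNA with no other name, held 30 and 33 (16.1 and 6.27 CPM), a log2 ratio of -1.47 with an exact adjusted p of 0.00134. The log2 ratios of these 3 were further below 0 than those of the U3 transcripts. They are described here because they were called, and at their lower counts only a large ratio can be called. The difference from U3 was therefore not tested. Gm23262 was the fifth snoRNA called, with 24 and 34 footprints, and lost its call with library totals.

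Of the 43 scaRNAs, Scarna2, a box C/D scaRNA that guides modification of U2, stood highest. It held 79 and 108 footprints (42.3 and 20.5 CPM), a log2 ratio of -1.21 with an exact adjusted p of 2.38e-06, and no enclosing gene. The next, Gm25395 within Atg16l1, held 13 and 36 (6.96 and 6.84 CPM) and was not called (log2 ratio -0.20, exact adjusted p 0.935). The tested scaRNAs Gm22442, Gm25492, Scarna3a, Scarna13 and Gm22009 held 8 to 12 footprints in replicate 1 and 19 to 30 in replicate 2, and none was called.

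miRNA precursors were the least covered class. RefSeq gave a mature sequence for 916 of them, and 187 of these (20.4%) had a footprint, against 236 of 1277 (18.5%) without a mature entry. Mature miRNAs have a median length of 22 nucleotides in that table, and 42 of 1738 (2.42%) reach 25 nucleotides, the lower bound of the fragments selected. Precursors with such a long mature form had a footprint in 5 of 33 cases (15.2%), against 182 of 883 (20.6%) of the others. Mir541, printed above, was the highest of the 33, with 9 and 7 footprints (4.82 and 1.33 CPM).

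Mir5099 held 28 and 29 footprints (15.0 and 5.51 CPM), a log2 ratio of -1.54 with an exact adjusted p of 0.0011. Gm25745, the miRNA transcript with the highest mean level, held 28 and 44 (15.0 and 8.36 CPM) and was not called (log2 ratio -0.98, exact adjusted p 0.0726). AC151967.1 and Gm27920 were the other miRNA transcripts called, with 17 and 19 and with 14 and 14 footprints, and both lost the call with library totals. Mir686, within the proteasome gene Psmb5, held 16 and 41 (8.57 and 7.79 CPM, log2 ratio -0.30), and Mir8094, within the RNA helicase gene Ddx39b, held 9 and 29 (4.82 and 5.51 CPM, log2 ratio 0.01). A precursor within an exon of such a gene would share its fragments with the messenger RNA, and this was not tested.

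By seed, the 11 precursors that carry GAGGUAG held 30 and 50 footprints (16.1 and 9.50 CPM), and the 6 that carry ACAUUCA, the miR-181 seed, held 20 and 32 (10.7 and 6.08 CPM). Mirlet7b was the most covered let-7 precursor, with 9 and 10 footprints. Of 9 families known in brain, the let-7 precursors by name held the most, with 33 and 54, followed by miR-181 with 20 and 32 and miR-138 with 12 and 11. The miR-9 precursors held 3 and 12, those of miR-125b 4 and 10, of miR-128 1 and 3, of miR-124, a neuronal miRNA, 1 and 2, of miR-29 0 and 1 and of miR-30 1 and 1. No single precursor of these families held more than 10 footprints in a library.

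Position within other genes was taken from RefSeq by symbol for 3507 of the 5111 transcripts. For placed snRNAs the share with a footprint hardly varied with position, at 38.9% with no enclosing gene, 35.8% in protein-coding and 40.0% in non-coding genes. For snoRNAs it ranged from 9.59% to 75.2% over the same kinds, and 38 of 41 snoRNAs within ribosomal protein genes (92.7%) had one. Where a small RNA and a gene enclosing it both had footprints, the small RNA was the denser in 76 of 137 pairs for snRNAs, 205 of 363 for snoRNAs, 1 of 10 for scaRNAs and 31 of 131 for miRNAs. For snoRNAs this differed between hosts: the snoRNA was the denser in 168 of 182 pairs with Snhg14 and in 37 of 181 pairs with other hosts. The 182 pairs all set array copies against the density of 1 host, and how fragments were placed on the copies is not known. They are thus 1 host and not independent pairs, and snoRNAs without a footprint were left out. Median densities were 19.6 CPM per kilobase for the snoRNAs in Snhg14 against 6.97 for Snhg14 itself, and 6.54 for the other snoRNAs against 44.9 for their hosts. The density of an enclosing gene was the sum over its transcripts of CPM per kilobase, while that of a small RNA was of a single transcript. For genes with several transcripts these measures are unlike, and the counts of denser small RNAs rest on them. How many of the snoRNA fragments came from host messenger RNA was not tested.

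**Figure D5:**
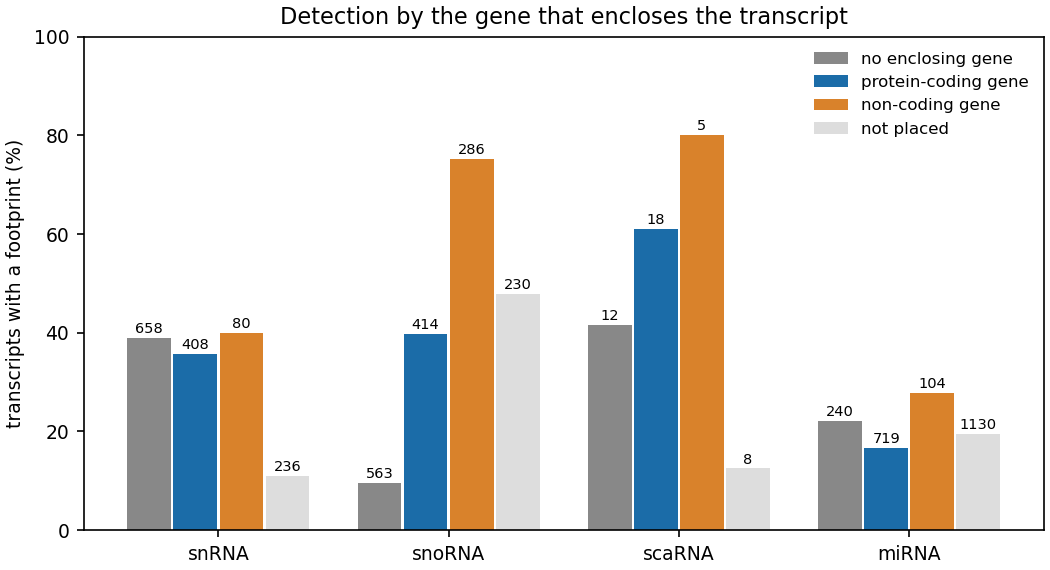
Share of transcripts with at least 1 footprint in either library (percent), by class and by the kind of RefSeq gene that encloses the transcript, with the number of transcripts above each bar. snoRNA bars range from 9.59% with no enclosing gene to 75.2% in non-coding genes, while the snRNA bars of placed transcripts lie between 35.8% and 40.0%.

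The proteins that bind or process these RNAs are read from messenger RNA, and their genes were tested in the same way over 16427 genes, of which 17.4% were called, 5.95% higher and 11.5% lower in replicate 2. Of 4 box C/D protein genes tested, 1 was higher, Nop58 (log2 ratio 0.44, exact adjusted p 0.00277), and 0 were lower. Of 5 box H/ACA protein genes, Dkc1, the pseudouridine synthase, was higher (0.63) and Nop10 lower (-0.55). Of 19 genes for proteins particular to U snRNPs, 3 were higher, Prpf8 (0.24), Eftud2 (0.32) and Lsm3 of the U6 ring (1.07). The 2 lower were Snrnp70 of U1 (-0.83, exact adjusted p 5.42e-14) and Lsm4, also of the U6 ring (-0.51). The U1 protein genes Snrpa and Snrpc were not called (0.11 and -0.23). Of 13 genes that make or carry miRNAs, 0 were higher and 1 lower, and of 10 for export, capping and modification, 1 was higher, Ssb, and 1 lower, Nolc1.

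Small structured RNAs outside the 4 classes were lower in replicate 2 as well. The signal recognition particle RNAs Rn7s1 and Rn7s2 had log2 ratios of -1.55 and -1.48, and Rn7sk, which holds back transcription elongation factor P-TEFb, -1.73. The RNA components of RNase P (Rpph1) and RNase MRP (Rmrp) had -1.02 and -0.74, and the Y RNA Rny1 -1.06. All 6 were called lower by the exact binomial test over genes, and of the other RNAs in these lists only Rny3 reached the tested level and was not called (log2 ratio -0.87). The long non-coding genes that host snoRNAs were mixed. Of 12 such genes tested, 3 were called lower, 1110038B12Rik, 2410006H16Rik and 2700038G22Rik (log2 ratios -0.79, -1.31 and -1.38), and 1 higher, Snhg11 (1.23), while Snhg14 held 24 and 108 footprints and was not called (0.53, exact adjusted p 0.296). A shorter list of known snoRNA host RNAs had 0 of 5 tested genes called.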

How the data were processed

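Ribosome profiling libraries of polysomes from 2 control mouse brains were analysed as 1 group. The authors deposited a table of raw whole-number counts per transcript with no normalization. The submitters' processing notes name Trimmomatic 0.36, Bowtie2 2.2.6, SAMtools and genome build GRCm38.p4. The counting step, the use of strand and the placing of fragments with several matches are not given in the sources used here, and they bear directly on repeated small RNAs. RefSeq positions and sequences are from GRCm38.p6, another patch release of the same assembly.

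Counts were scaled to CPM and to CPM per kilobase. Transcripts averaging at least 10 counts entered a two-sided exact binomial test (scipy 1.17.1) against TMM library sizes (edgeR 4.0.16 in R 4.3.3), adjusted by Benjamini-Hochberg and called below 0.05. edgeR's quasi-likelihood test needs residual degrees of freedom that 1 group of 2 lacks. The test compares 2 libraries and was tried on simulated data. Those data were drawn with counting noise only, as the test assumes, so they cannot show how it behaves with spread between animals. Log2 ratios of transcripts and genes use a prior of 0.5 CPM, and ratios of class and family shares use library totals. TMM was first computed over all transcripts and was then restricted to those averaging at least 10 counts. The change was made after the first output was seen, and the closing section gives both.

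Named transcripts were the 6 with the highest mean level in each class, up to 10 called per class, the Rnu-named snRNAs, scaRNAs with at least 10 footprints in both libraries and the 10 highest miRNAs with a mature sequence. The members and lists were chosen with earlier results of these data known. The families by length, the Snhg14 arrays, the minimum counts for evenness, the brain miRNA families, the density band and the groups by host were chosen after values were seen. Matched RNA was not analysed here, so no translational efficiency is given.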

Additional observations from a re-analysis of the deposited data

How the results depend on the processing

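No paired analysis was possible because the study has 1 group. Class densities (CPM per kilobase) over places for a 30-nucleotide fragment were 16.2 for snRNAs, 7.85 for snoRNAs and 2.72 for miRNAs; as medians over transcripts with a footprint they were 23.4, 11.7 and 3.15, and 6.03 for scaRNAs. Shares from transcripts averaging at least 10 counts were 0.0640% for snoRNAs and 0.0181% for miRNAs. Requiring 3 footprints in both libraries left 249 snoRNAs, 8 scaRNAs and 78 miRNAs, and requiring 10 left 93 snRNAs, 48 snoRNAs, 6 scaRNAs and 19 miRNAs. Leaving out a replicate gave 233 to 371 miRNAs with a footprint.

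With library totals the binomial test called 14 snRNAs, 3 snoRNAs, 1 scaRNA and 1 miRNA, all lower in replicate 2 and all among the original calls, and 8 of the 23 called among the named transcripts lost their call. Over all 43655 transcripts this setting called 1901 (4.35%). With a common dispersion, edgeR's exact test called 0 in every class (27, 10, 1 and 4 at an unadjusted p under 0.05). Summing copies per family, added after the data were seen, gave 7 calls of 35 snRNA features, with no share over all features kept. TMM over all transcripts, the setting of the first run, gave 27 snRNA, 4 snoRNA, 1 scaRNA and 2 miRNA calls, 34 in place of 40, with 2418 in place of 2683 over all transcripts. DESeq2 (1.42.0) size factors gave 40, with 2749 (6.3%) over all transcripts. Without the low-count filter 30 were called, with 2253 of 78758 (2.86%) over all transcripts. With TMM the log2 share ratio of U6-length transcripts was reversed, at -0.012, and that of the 94-nucleotide snoRNAs of Snhg14 was 0.067 in place of 0.25. The common dispersion comes from the same libraries, so counting noise and the spread between animals cannot be told apart per transcript.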
